A study of Mus musculus with 12 samples.

Results

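The 9 genes described here encode zinc finger transcription factors of the early growth response (EGR) family, Egr1, Egr2 and Egr3, and of the Krüppel-like factor (KLF) family, Klf2, Klf3, Klf4, Klf6, Klf10 and Klf13. A peak of open chromatin was counted at one of these genes if its centre lay inside the gene, or if that gene was the nearest protein-coding gene within 100 kb. By this rule 786 of 334073 peaks, summed over 6 peak lists, belonged to the 9 genes, and merging overlapping peaks gave 220 of 100354 regions. The genes are 9 of 21900 protein-coding genes with a position in the annotation.

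The open chromatin was mapped by ATAC-seq, which uses a transposase that cuts and tags accessible DNA. Myeloid cells were sorted from C57BL/6J mice into 6 groups, with 2 libraries in each (12 in all). Of these, 5 groups came from mice on a diet labelled as a NASH diet, a model of nonalcoholic steatohepatitis (fatty liver with inflammation). They were F4/80-high Kupffer cells without Tim4 (KN-RM), F4/80-high Kupffer cells with Tim4 (KC-N), recruited CD11b-high liver macrophages with low Ly6C (Ly6CLo-RM) or high Ly6C (Ly6CHi-RM), and blood monocytes with high Ly6C (Blood-Ly6CHi-NASH). The only group not fed it was KC-H, sorted by the KC-N gate (F4/80-high with Tim4) in mice given a control diet. Kupffer cells are the resident macrophages of the liver, and Ly6C-high blood monocytes can enter the liver and become macrophages there. Each group is defined by its sort gate, and no source used here gives the age, sex or number of the mice. Each group has 1 list from the authors, made from both libraries, so there is no error between replicates, no comparison has a test, and the 95% Wilson intervals cover counting error only.

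EGR proteins bind a GC-rich motif, and their genes are immediate early genes: serum, growth factors and cell adhesion switch them on within minutes through serum response factor, which binds the CArG box of their promoters. Egr1 and Egr2 are used in monocyte to macrophage differentiation. KLF proteins bind CACCC elements and GC boxes; Klf2 holds myeloid cells in a quiescent state, Klf4 is needed for Ly6C-high monocytes to form, and Klf6 is an early response gene studied in liver stellate cells. Klf10 is induced by TGF-beta, Klf3 is a repressor that recruits CtBP, and Klf13 is a regulator of a chemokine gene in human T cells.

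The promoters of these genes were searched for the motifs that EGR and KLF proteins and a few common upstream factors recognise. RefSeq windows of 300 bases (250 before to 50 after a gene start, GRCm38.p6) were found for 6 of the 9 genes, all but Egr1, Egr3 and Klf10. The 6 windows printed here show starts whose window held a peak in all lists and starts where it did not. Those of Klf13, Klf6 and Klf2 held a peak in all 6 lists, the outer start of Egr2 in 4 lists and its inner start in all 6. That of Klf3 held one in KC-N only, but all 6 lists had a peak just outside that window, 357 to 389 bp before the Klf3 start. Each runs 5′ to 3′ on the gene's strand. Capitals mark matches on either strand to the GC box with the letters GGGCGG, to the KLF element with the letters CACCC, to the EGR motif (GCGTGGGCG or GCGGGGGCG), to the AP-1 site with the letters TGAGTCA, to the CRE (TGACGTCA) and to the CArG box. GC boxes, CACCC and EGR motifs can overlap, and adjoining matches run together.
Klf13 (chr7:63938866-63939165, - strand): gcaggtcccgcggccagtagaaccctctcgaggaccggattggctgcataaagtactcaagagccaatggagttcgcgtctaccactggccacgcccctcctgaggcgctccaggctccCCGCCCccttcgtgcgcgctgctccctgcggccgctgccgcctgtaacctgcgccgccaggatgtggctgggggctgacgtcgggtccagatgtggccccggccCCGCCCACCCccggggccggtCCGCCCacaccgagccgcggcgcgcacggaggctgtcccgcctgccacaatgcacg
Klf6 (chr13:5861239-5861538, + strand): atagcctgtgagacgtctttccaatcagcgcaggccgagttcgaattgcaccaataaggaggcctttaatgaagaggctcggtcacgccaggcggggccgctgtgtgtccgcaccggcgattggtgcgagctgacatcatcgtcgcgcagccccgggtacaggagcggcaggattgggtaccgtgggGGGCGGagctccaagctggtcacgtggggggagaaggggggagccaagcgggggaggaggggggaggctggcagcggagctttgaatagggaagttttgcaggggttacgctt
Klf2 (chr8:72318812-72319111, + strand): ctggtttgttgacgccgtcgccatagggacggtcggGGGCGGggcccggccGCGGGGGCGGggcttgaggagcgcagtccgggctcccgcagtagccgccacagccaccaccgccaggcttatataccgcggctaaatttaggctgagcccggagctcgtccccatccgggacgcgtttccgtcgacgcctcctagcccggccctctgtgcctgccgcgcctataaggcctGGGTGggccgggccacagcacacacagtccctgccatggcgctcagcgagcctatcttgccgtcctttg
Klf3 (chr5:64803271-64803570, + strand): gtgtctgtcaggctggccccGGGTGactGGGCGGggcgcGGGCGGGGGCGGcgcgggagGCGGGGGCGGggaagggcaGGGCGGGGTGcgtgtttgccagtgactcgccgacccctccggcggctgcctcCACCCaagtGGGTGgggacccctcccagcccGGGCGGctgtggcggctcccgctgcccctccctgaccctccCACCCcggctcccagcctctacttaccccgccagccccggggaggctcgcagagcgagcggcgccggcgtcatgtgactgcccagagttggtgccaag
Egr2, outer start (chr10:67535249-67535548, + strand): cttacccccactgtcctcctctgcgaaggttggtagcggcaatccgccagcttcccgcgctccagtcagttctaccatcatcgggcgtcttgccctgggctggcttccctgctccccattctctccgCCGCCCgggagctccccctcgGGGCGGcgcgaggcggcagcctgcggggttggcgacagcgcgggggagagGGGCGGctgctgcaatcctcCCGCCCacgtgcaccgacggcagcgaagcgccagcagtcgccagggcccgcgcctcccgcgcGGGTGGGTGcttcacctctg
Egr2, inner start (chr10:67537619-67537918, + strand): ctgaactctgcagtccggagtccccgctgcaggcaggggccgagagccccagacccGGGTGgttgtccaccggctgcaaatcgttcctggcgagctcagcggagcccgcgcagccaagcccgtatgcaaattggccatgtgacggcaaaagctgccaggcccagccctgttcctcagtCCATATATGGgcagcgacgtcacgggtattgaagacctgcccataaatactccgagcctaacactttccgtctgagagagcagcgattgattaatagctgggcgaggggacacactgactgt

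The GC content of the member windows ran from 56.0% to 76.7%, against a median of 52.7% over all 32851 RefSeq windows. Klf3 held 6 GC boxes, 5 CACCC elements and 2 EGR motifs, the most of the printed windows, and Klf2 held 2 GC boxes, 1 CACCC and 1 EGR motif. Klf13 held 3 GC boxes and 1 CACCC, while Klf6 held 1 GC box. The Klf4 window, not printed, held 4 GC boxes and 1 EGR motif. Over all windows, 35.7% held a GC box, 57.5% a CACCC and 3.47% an EGR motif. The inner start of Egr2 held a CArG box, as did a further Egr2 window (chr10:67537316-67537615), against 1.63% of all windows. No member window held an AP-1 site or a CRE, which 5.20% and 1.79% of all windows held, or the PU.1 core (GAGGAAG), which 13.6% held. A match describes the letters of a window and is not a measured binding site.

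As a set, though not each gene by itself, the 9 genes were rich in peaks in every list. KN-RM held 94 peaks at them, KC-N 121, KC-H 147, Ly6CLo-RM 144, Ly6CHi-RM 136 and Blood-Ly6CHi-NASH 144. Per 10000 peaks of a list, this came to 27.4 in KN-RM, 23.9 in KC-N, 23.1 in KC-H, 26.4 in Ly6CLo-RM, 22.1 in Ly6CHi-RM and 20.7 in Blood-Ly6CHi-NASH. The median of the 9 genes ran from 8 peaks in KN-RM to 14 in blood. Over all protein-coding genes the median was 1 or 2 in every list, and over genes with a peak 2 or 3. Klf6, with 58 regions, and Klf13, with 45, stood far above the rest: at Klf6 the counts were 27 in KN-RM, 36 in KC-N, 33 in KC-H, 43 in Ly6CLo-RM, 39 in Ly6CHi-RM and 39 in blood. Klf6 had more peaks than 99.8% of all genes in KC-H and than 99.9% or more in the other 5 lists. Egr3 had the fewest, from 2 in KN-RM to 6 in KC-H. Its 2 peaks in KN-RM were more than 68.3% of all genes had, and its 3 in blood more than 62.0%. The DNA in or nearest to a gene within the window differed, from 22.7 kb at Egr3 to 208.6 kb at Klf13 and 209 kb at Klf6. Per 100 kb of it, Klf2 had 48.7 regions, Egr1 44.1, Egr3 30.8, Klf6 27.8 and Klf3 22.6. Klf13 had 21.6, Klf10 15.6, Egr2 13.8 and Klf4 13.3. These densities are given for the 9 genes only, with no value for other genes beside them.

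**Figure D1:**
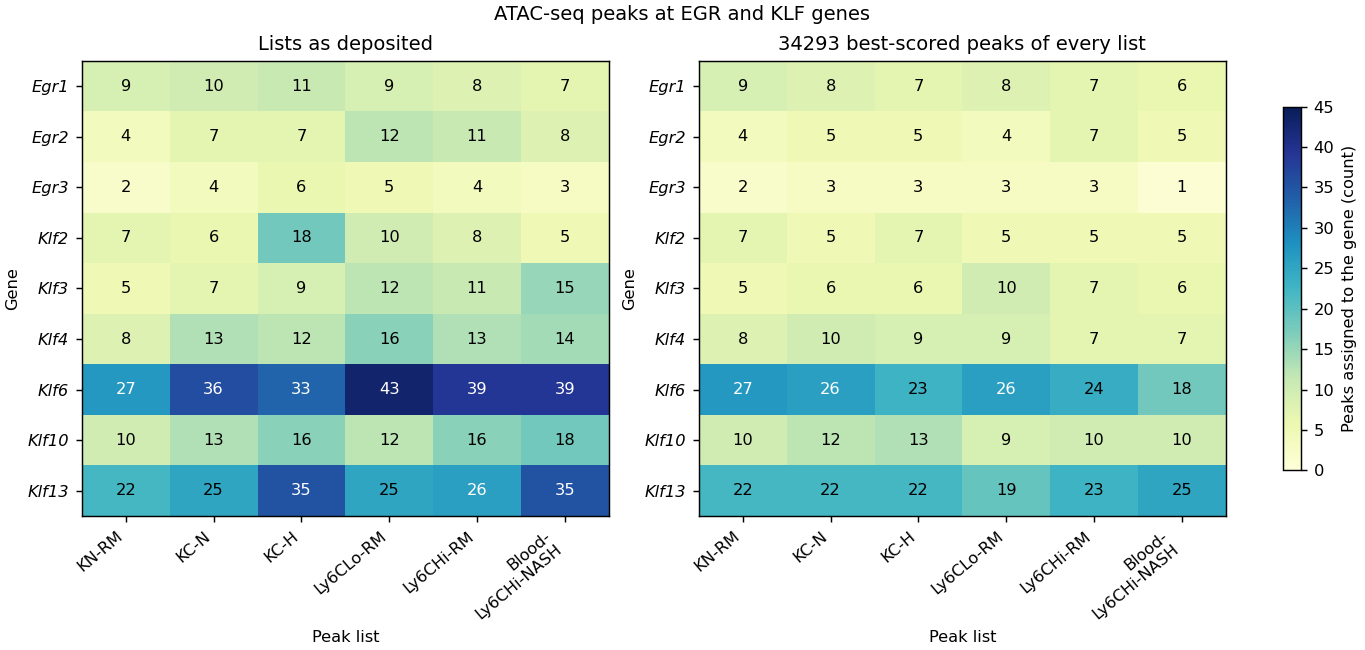
Number of peaks assigned to each gene (rows) in each list (columns), for the lists as deposited (left) and for the 34293 best-scored peaks of every list (right). Klf6 and Klf13 hold the most peaks in every column; the 18 Klf2 peaks of KC-H become 7 when every list has the same length.

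The lists differ in length: KN-RM holds 34293 peaks, KC-N 50550, Ly6CLo-RM 54621, Ly6CHi-RM 61492, KC-H 63501 and Blood-Ly6CHi-NASH 69616, so a longer list holds more weak peaks and a region missing from KN-RM is weaker evidence of closed chromatin than one missing from another list. Each peak has a score and a normalized tag count, which are the authors' own values and were used only to rank peaks within a list. As sums, the Kupffer cell markers followed the labels, but not every single marker did, and the sums were not scaled to list length. The 5 Kupffer cell markers summed to 16 peaks in KN-RM, 30 in KC-N and 79 in KC-H, against 4 in Ly6CLo-RM, 10 in Ly6CHi-RM and 13 in blood. Timd4, which encodes Tim4, had 0 peaks in KN-RM and 17 in KC-H but only 1 in KC-N, although KC-N is labelled Tim4-positive. Vsig4 did not follow the labels. Blood held 6 Vsig4 peaks, KC-H 5, Ly6CHi-RM 4, KC-N 2, and KN-RM and Ly6CLo-RM 1 each. Marco was at 0 in KN-RM, whose sum came mostly from Cd5l (10) and Clec4f (5). Neutrophil, T and NK cell, B cell and stellate cell lists of 3 genes each summed to 3 peaks or fewer in every list. Ly6g, Elane, Cd8a, Cyp3a11, Lrat and Des had 0 peaks in every list. The 3 hepatocyte genes summed to 0 or 1 in the liver lists and to 12 in blood, 11 of them at Alb. The 3 endothelial genes summed to 13 to 29 over the lists, highest in KC-H, but 2 of them went opposite ways. Stab2 had 7 peaks in KN-RM, 13 in KC-N, 19 in KC-H and 1 in each other list. Kdr had 2 or 3 in the F4/80-high lists and 5 to 7 in the other 3. The 3 dendritic cell genes summed to 9 to 14 in the F4/80-high lists and 23 to 27 in the other 3. The 4 monocyte genes summed to 11 to 18 in the F4/80-high lists and 15 to 27 in the others. These ranges overlapped: Ly6CLo-RM, at 15, stood below KC-N (16) and KC-H (18). The 3 pan-macrophage genes summed to 19 to 31. Their part in the results was not tested.

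Egr1, the prototype immediate early factor, was open in every list, with 9 peaks in KN-RM, 10 in KC-N, 11 in KC-H, 9 in Ly6CLo-RM, 8 in Ly6CHi-RM and 7 in blood. Its 13 regions all lay between 6.6 kb below the lower end of the gene (chr18:34861207-34864956) and 0.7 kb above its upper end. Of these 13, 6 were held by all 6 lists, beside 25.4% of all regions. The region centred 4.8 kb below the gene scored 83 in KN-RM (top 5.12% of its list), 91 in KC-N (9.41%), 139 in KC-H (8.10%), 138 in Ly6CLo-RM (4.81%), 149 in Ly6CHi-RM (5.55%) and 133 in blood (7.64%). The region 0.392 kb below the gene scored 64 in KN-RM, 109 in KC-N, 171 in KC-H, 141 in Ly6CLo-RM, 147 in Ly6CHi-RM and 133 in blood. Both stood among the better-scored peaks of every list. A weaker region 6.6 kb below the gene was in all 5 liver lists, with scores of 30 in KN-RM, 23 in KC-N, 34 in KC-H, 27 in Ly6CLo-RM and 52 in Ly6CHi-RM, and absent from blood, whose nearest peak centre was 738 bp away.

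Egr2, needed for Schwann cells to make myelin and also used by macrophages, had a compact open core and an upstream flank. In the lists as deposited, the flank was held mainly by the blood and CD11b-high lists. The core of Egr2 lies 1.7 to 3.3 kb inside the gene (chr10:67534469-67542188, + strand), at and before the inner starts whose window is printed above. The region centred 3.3 kb from the gene start scored 62 in KN-RM, 97 in KC-N, 136 in KC-H, 90 in Ly6CLo-RM, 99 in Ly6CHi-RM and 84 in blood. It was the best-scored Egr2 peak of the 3 F4/80-high lists, in the top 14.0%, 7.78% and 8.61% of KN-RM, KC-N and KC-H. The neighbouring region at 3.0 kb scored 46 in KN-RM, 69 in KC-N, 92 in KC-H, 115 in Ly6CLo-RM, 119 in Ly6CHi-RM and 97 in blood, and was the best-scored Egr2 peak of both CD11b-high lists.

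The outer Egr2 start had a region (chr10:67535281-67535527) with scores of 52 in KC-H, 30 in Ly6CLo-RM, 47 in Ly6CHi-RM and 31 in blood. KN-RM and KC-N lacked it, with their nearest centres 774 and 756 bp away. From 15 to 95 kb upstream, Egr2 had 8 regions, of which Ly6CLo-RM held 7, Ly6CHi-RM 6 and blood 4, while KC-N held 2 and KN-RM and KC-H 1 each. The region 15.5 kb upstream scored 27 in Ly6CLo-RM, 63 in Ly6CHi-RM and 62 in blood, and the nearest centre of an F4/80-high list was 16452 bp away. The region 30.7 kb upstream scored 28 in Ly6CLo-RM, 43 in Ly6CHi-RM and 37 in blood, again with none in the F4/80-high lists. The region 50.9 kb upstream scored 24 in KN-RM, 49 in Ly6CLo-RM and 50 in Ly6CHi-RM and was in no other list. Most of the flank ranked below the median of its list: in equal-length lists Egr2 had 4 peaks in KN-RM, 5 in KC-N, 5 in KC-H, 4 in Ly6CLo-RM, 7 in Ly6CHi-RM and 5 in blood. The flank peaks of KC-N, at ranks 26935 and 29719, were among its 34293 best-scored peaks. Most flank peaks of Ly6CLo-RM were not. Of 15 Egr2 regions, 5 were in no F4/80-high list, beside 29.4% of all regions.

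Egr3, known with Egr2 for restraining T cell activation, had 7 regions, all within 7.9 kb below or at the lower end of the gene (chr14:70077317-70082613). The region 0.473 kb below the gene (chr14:70076728-70076960) scored 79 in KN-RM, 101 in KC-N, 144 in KC-H, 117 in Ly6CLo-RM and 116 in Ly6CHi-RM, but 31 in blood. In the 5 liver lists it stood in the top 6.31% to 12.0%, and in blood at 73.5% of the list. The region 2.4 kb below the gene scored 46 in KN-RM, 79 in KC-N, 116 in KC-H, 113 in Ly6CLo-RM, 120 in Ly6CHi-RM and 96 in blood, so the pair of regions did not share the low place in blood. Per the labels' protocol the liver cells were released by perfusion and enzyme digestion, a step that belongs to tissue, so organ and handling cannot be told apart in any contrast of liver with blood.

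**Figure D2:**
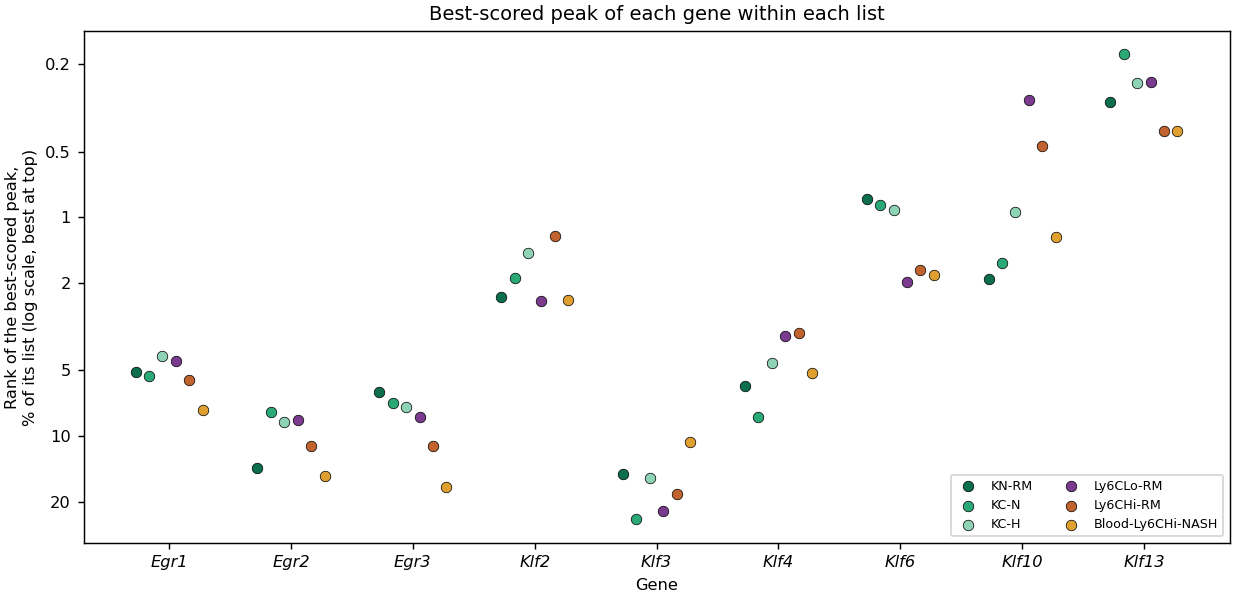
Rank of the best-scored peak of each gene in each list, in % of the list, on a log axis with the best rank at the top; colours are the 6 lists. Klf13 stands in the top 0.5% of every list, and the blood points of Egr1, Egr2 and Egr3 are the lowest of their genes; the peak before the Klf3 start, counted at an overlapping gene, is not plotted.

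Klf2 had a promoter open in every list and surroundings that differed between lists. Its promoter region (chr8:72318832-72319174; gene chr8:72319062-72321654, + strand) scored 96 in KN-RM (top 2.32%), 141 in KC-N (1.89%), 217 in KC-H (1.45%), 160 in Ly6CLo-RM (2.41%), 196 in Ly6CHi-RM (1.22%) and 174 in blood (2.38%). A region 3.6 kb downstream of the start scored 49 in KN-RM, 82 in KC-N, 130 in KC-H, 116 in Ly6CLo-RM, 142 in Ly6CHi-RM and 98 in blood. All 6 lists held both.

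KC-H held 18 Klf2 peaks, against 7 in KN-RM, 6 in KC-N, 10 in Ly6CLo-RM, 8 in Ly6CHi-RM and 5 in blood. Of the 21 Klf2 regions, 10 were in KC-H only, a membership that 9.84% of all regions had. Of the 10, 8 lay in or just beyond the gene, from 0.581 to 6.8 kb after its start, in the stretch shown by the plot of peaks around 4 genes. The strongest, 0.581 kb after the start, scored 90 (top 20.7% of KC-H); the other 9 scored 26 to 40, below the KC-H median of 48. In equal-length lists KC-H held 7 Klf2 peaks, KN-RM 7, KC-N 5, Ly6CLo-RM 5, Ly6CHi-RM 5 and blood 5. The regions of KC-H only at Klf2 thus lay mostly among the lower-scored peaks of KC-H. Blood, the longest list with 69616 peaks, held 5 Klf2 peaks, and the cause of the KC-H surplus was not tested.

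Klf4 was open at its start in all lists, with its 2 promoter regions 0.140 and 0.524 kb before the start (gene chr4:55527137-55532475, − strand). The nearer one scored 54 in KN-RM (top 20.2%), 96 in KC-N (8.18%), 161 in KC-H (5.31%), 150 in Ly6CLo-RM (3.47%), 168 in Ly6CHi-RM (3.38%) and 149 in blood (5.15%). A region 17.6 kb after the start scored 20 in KN-RM (at 95.8% of its list), 49 in KC-N (33.9%), 76 in KC-H (26.9%), 69 in Ly6CLo-RM (24.0%), 103 in Ly6CHi-RM (15.5%) and 116 in blood (11.2%). Its best place was in blood monocytes and its lowest in KN-RM. A region 91.1 kb before the start was in all 6 lists, with scores of 63 in KN-RM, 85 in KC-N, 141 in KC-H, 75 in Ly6CLo-RM, 117 in Ly6CHi-RM and 133 in blood. Of 23 Klf4 regions, 4 were in Ly6CLo-RM only, all with scores of 30 or less, beside 3.93% of all regions.

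Within the 100 kb window, Klf6 had the widest field of open chromatin, from 97.8 kb before to 78.1 kb after its start (gene chr13:5861489-5870393, + strand). All 6 lists held 21 of its 58 regions, beside 25.4% of all regions. The window cuts the field: beyond it, out to 1000 kb and summed over the lists, 81 peaks were nearest to Klf6, 139 to Klf4 and 5 to Egr2. Its promoter region scored 111 in KN-RM, 163 in KC-N, 235 in KC-H, 166 in Ly6CLo-RM, 187 in Ly6CHi-RM and 181 in blood. It stood in the top 0.825% to 0.924% of the 3 F4/80-high lists and the top 1.74% to 1.97% of the other 3.

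A Klf6 region held by every NASH-diet list lay 23.9 kb before the start (chr13:5837483-5837705). It scored 31 in KN-RM, 72 in KC-N, 49 in Ly6CLo-RM, 73 in Ly6CHi-RM and 22 in blood, and was absent from KC-H, whose nearest peak centre was 7690 bp away. A region 91.6 kb before the start (chr13:5769742-5769984) had the same membership, with scores of 27 in KN-RM, 43 in KC-N, 43 in Ly6CLo-RM, 44 in Ly6CHi-RM and 54 in blood, and a nearest KC-H centre at 4143 bp. These were the 2 member regions in all 5 NASH-diet lists and not in KC-H, 0.909% of 220 regions, a share close to the 0.842% of all regions with that membership. In equal-length lists 2 of 137 member regions had it (1.46%, beside 2.12%), 1 at Klf6 and 1 at Klf13. KC-H is the second longest of the 6 lists.

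Klf6 also had regions that split the lists by cell type. A region 75.8 kb before the start scored 54 in KN-RM (top 19.8%), 92 in KC-N (9.05%), 106 in KC-H (15.0%), 24 in Ly6CLo-RM (at 82.4%), 44 in Ly6CHi-RM (52.7%) and 52 in blood (43.1%). It stood higher in each F4/80-high list than in any other. A region 25.5 kb after the start scored 34 in Ly6CLo-RM, 78 in Ly6CHi-RM and 97 in blood and was in no F4/80-high list. From 4.2 to 14.5 kb after the start, 5 regions were in Ly6CLo-RM only and 4 in both CD11b-high lists only. All had scores of 34 or less, and 3.93% and 1.35% of all regions had these memberships.

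Klf10 had 21 regions with 3 strong parts. The region at the upper end of the gene (chr15:38291464-38300711) scored 89 in KN-RM, 147 in KC-N, 233 in KC-H, 208 in Ly6CLo-RM, 213 in Ly6CHi-RM and 190 in blood. The region 1.6 kb inside that end scored 65 in KN-RM, 121 in KC-N, 235 in KC-H, 195 in Ly6CLo-RM, 214 in Ly6CHi-RM and 189 in blood. The third, 84.2 kb above the gene, scored 100 in KN-RM, 123 in KC-N, 217 in KC-H, 150 in Ly6CLo-RM, 186 in Ly6CHi-RM and 192 in blood, and was the best-scored Klf10 peak of KN-RM and of blood. All 6 lists held it. The region 31.9 kb below the gene (chr15:38259410-38259643) was the only member region held by the 3 F4/80-high lists and no other in the full lists, 0.455% of 220 regions beside 1.89% of all regions. In equal-length lists 6 of 137 member regions had that membership (4.38%), beside 4.88% of all regions, and the cause of the change was not tested. The Klf10 region 31.9 kb below the gene scored 21 in KN-RM, 58 in KC-N and 104 in KC-H. Other lists had their nearest peak centre 11484 bp away or farther.

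Klf3 was the gene whose best-scored counted peak ranked lowest in each of the 5 liver lists, but the counting rule left out the peak next to its start. That peak lies 357 to 389 bp before the start, inside an overlapping predicted gene, Gm38457, to which the rule gives it. It scored 63 in KN-RM (top 13.4%), 94 in KC-N (8.65%), 142 in KC-H (7.66%), 146 in Ly6CLo-RM (3.81%), 173 in Ly6CHi-RM (2.87%) and 213 in blood (0.407%). It was thus in all 6 lists, and in each it ranked better than any peak counted at Klf3. No other member had a peak within 1 kb of a gene end that the rule gave to another gene. The strongest region counted at Klf3 in all 6 lists, 2.8 kb inside the gene (chr5:64803521-64832901, + strand), scored 61 in KN-RM, 60 in KC-N, 105 in KC-H, 73 in Ly6CLo-RM, 95 in Ly6CHi-RM and 116 in blood. Its start, whose window is the richest printed above in GC boxes, had a second peak, in KC-N only, with a score of 52 (top 31.4%), 367 to 399 bp from the peak that the other lists had before the start. A cluster 58.0 to 63.3 kb after the start was held by blood (5 regions), Ly6CLo-RM (3) and Ly6CHi-RM (2). Its strongest region (chr5:64864696-64864910) scored 57 in Ly6CLo-RM, 42 in Ly6CHi-RM and 119 in blood, where it was the best-scored Klf3 peak (top 10.7%). The nearest centre of any F4/80-high list was 19301 bp away.

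Klf13 had the highest-ranked promoter of the 9 genes. Its region 0.186 kb before the start (gene chr7:63886351-63938915, − strand) scored 123 in KN-RM, 199 in KC-N, 276 in KC-H, 210 in Ly6CLo-RM, 216 in Ly6CHi-RM and 213 in blood, in the top 0.180% to 0.404% of each list. A further region 41.9 kb after the start, inside the gene, scored 57 in KN-RM, 109 in KC-N, 191 in KC-H, 98 in Ly6CLo-RM, 144 in Ly6CHi-RM and 169 in blood. Of 45 regions, 19 were in all 6 lists, 8 in KC-H only and 7 in blood only. The shares of all regions with these memberships were 25.4%, 9.84% and 9.67%. The 8 KC-H regions scored 24 to 40 and the 7 blood regions 20 to 47, against list medians of 48 and 46, so they were mostly weak peaks of the 2 longest lists.

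**Figure D3:**
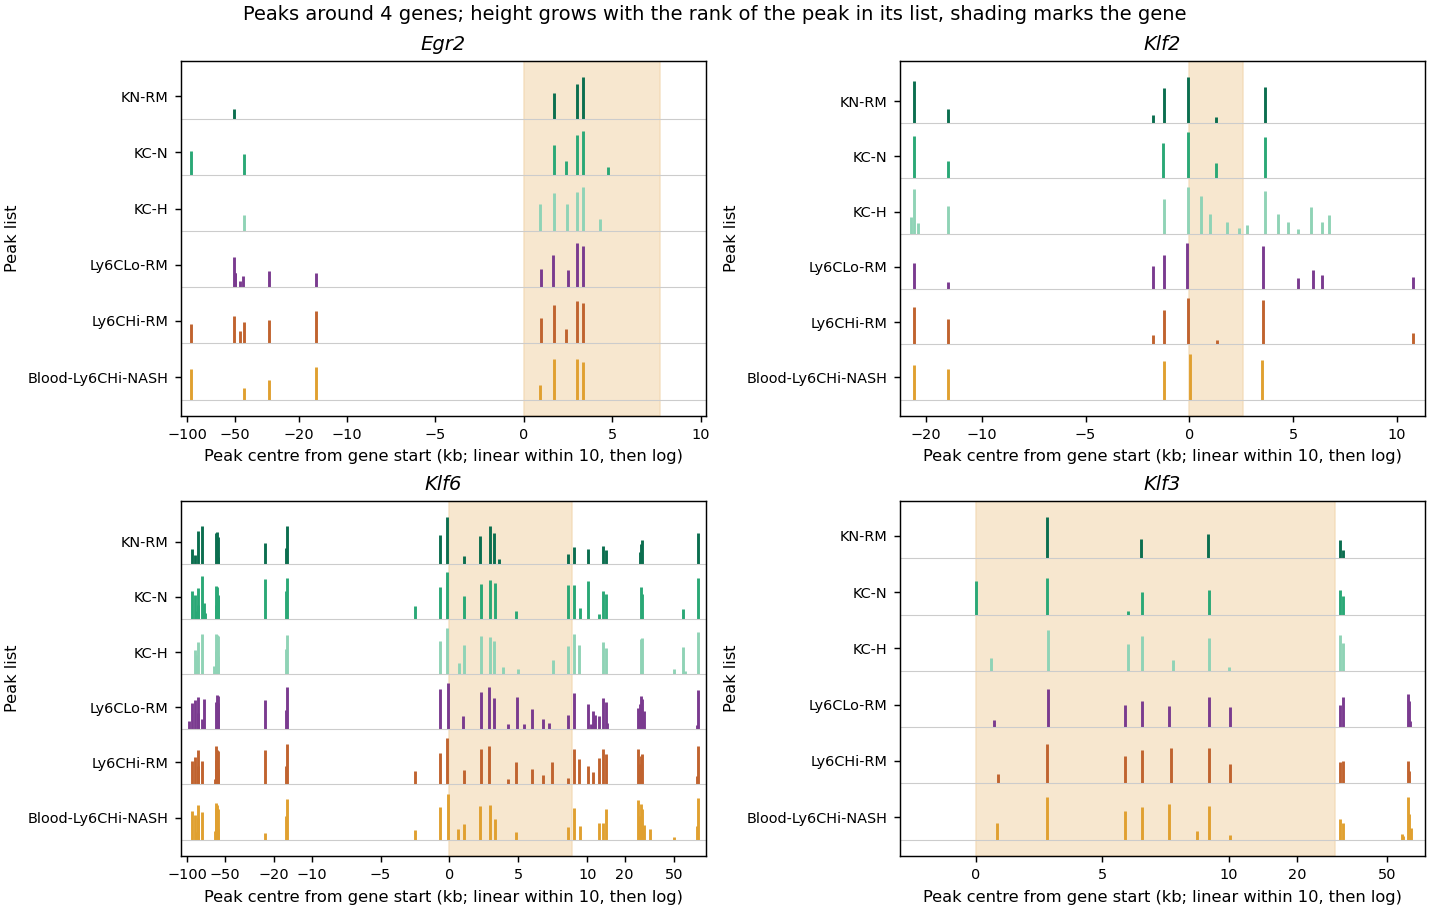
Peaks around Egr2, Klf2, Klf6 and Klf3 in each list, by distance of the peak centre from the gene start in kb (linear within 10 kb, then log; negative is before the start); a taller line is a better rank within its list, and shading marks the gene. In the lists as deposited, Egr2 shows its upstream lines mainly in the 3 lower rows, and Klf2 its extra gene body lines in KC-H. Klf6 shows its line at −23.9 kb in every row but KC-H, and Klf3 its lines beyond 58.0 kb in the 3 lower rows.

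A larger share of the regions at the 9 genes than of all regions was held by every list. All 6 lists held 75 of 220 member regions (34.1%, 95% interval 28.1% to 40.6%), beside 25.4% of all merged regions. Within 1 kb of a gene end the shares were 15 of 35 (42.9%, 28.0% to 59.1%) at the members and 47.0% overall. Farther out they were 60 of 185 (32.4%, 26.1% to 39.5%) and 19.5%, so the surplus lay in the distal regions. In equal-length lists the distal shares were 41.4% at the members and 23.8% overall. Except within 1 kb of a gene end, the shares of all regions also take in regions with no protein-coding gene within 100 kb. No member region can be of that kind, so the 2 sets are not fully alike. By gene, regions in all 6 lists made up 21 at Klf6, 19 at Klf13, 7 each at Klf4 and Klf10, 6 at Egr1, 5 each at Klf2 and Klf3, 3 at Egr2 and 2 at Egr3. Regions of 1 gene lie side by side and share its neighbourhood, so they are not independent.

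Regions limited to some lists were spread unevenly over the genes. KC-H alone held 26 (11.8%, 8.19% to 16.8%), beside 9.84% of all regions, 10 of them at Klf2 and 8 at Klf13. Blood alone held 16 (7.27%, 4.53% to 11.5%), beside 9.67%, with 7 at Klf13 and 4 at Klf3. Ly6CLo-RM alone held 14 (6.36%, 3.83% to 10.4%), beside 3.93%, with 6 at Klf6 and 4 at Klf4. Ly6CHi-RM alone held 0 (0% to 1.72%), beside 1.81%. KC-N alone held 8 (3.64%, 1.85% to 7.01%), beside 2.13%, with 3 at Klf4 and 2 at Klf6, and KN-RM alone 1 (0.455%, beside 0.262%). Both CD11b-high lists alone held 8 (3.64%, 1.85% to 7.01%), beside 1.35%, with 4 at Klf6. Blood and both CD11b-high lists alone held 7 (3.18%, 1.55% to 6.42%), beside 5.72%, with 2 each at Egr2, Klf3 and Klf6 and 1 at Klf4.

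Regions in no F4/80-high list numbered 48 (21.8%, 16.9% to 27.7%), beside 29.4% of all regions, and were found at every gene but Egr1. Regions in no blood or CD11b-high list numbered 38 (17.3%, 12.9% to 22.8%), beside 18.3%, with 10 at Klf2 and 9 at Klf13. All 5 liver lists but not blood held 2 regions, beside 0.937% of all regions, the one at Egr1 and one 0.718 kb inside the upper end of Klf10. These counts changed when the lists were cut to equal length. In equal-length lists, with 137 member regions, KC-H alone held 6 (4.38%, beside 5.21% of all regions) and blood alone 4 (2.92%, beside 5.56%). Ly6CLo-RM alone held 6 (4.38%, beside 5.23%) and KC-N alone 5 (3.65%, beside 2.64%). Ly6CHi-RM alone (2.19%, beside 1.70%) and KN-RM alone (2.19%, beside 3.29%) held 3 each. The surplus of Ly6CLo-RM over the whole was thus gone, as was that of both CD11b-high lists, which alone held 1 (0.730%, beside 1.44%). All 5 liver lists but not blood then held 7 regions (5.11%, beside 2.45%). Regions in no F4/80-high list stayed below the whole, at 20 (14.6%, beside 22.3%).

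**Figure D4:**
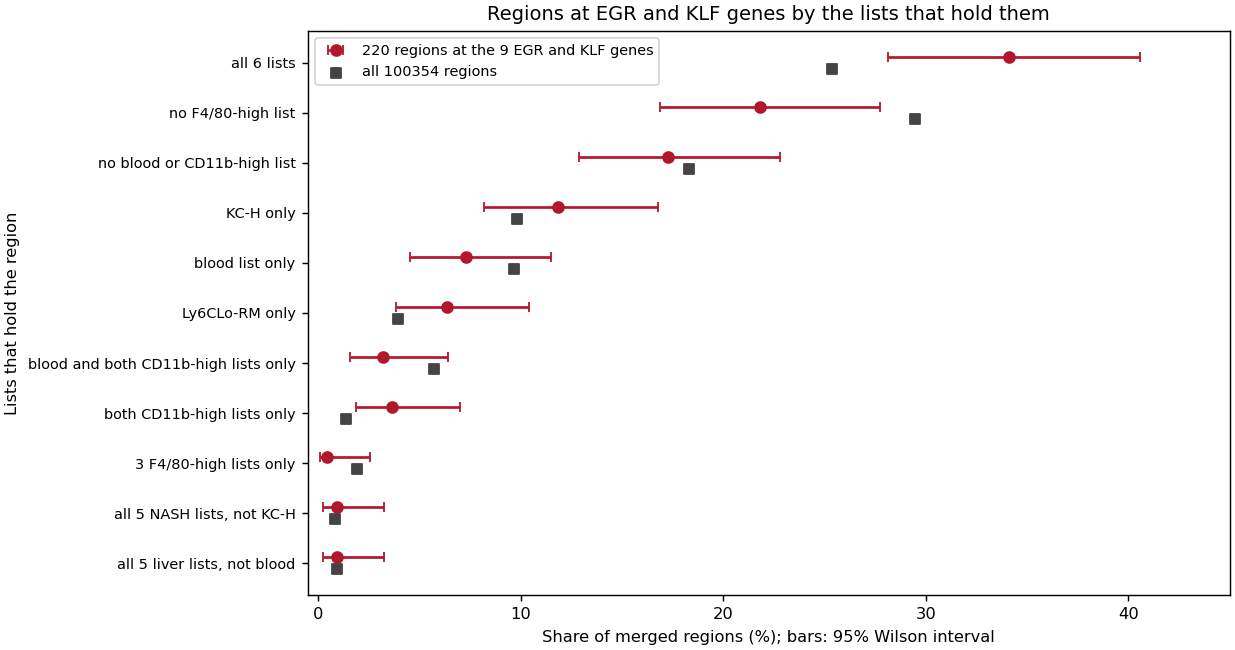
Share of merged regions with each list membership, for the 220 regions at the 9 genes (circles, with 95% Wilson intervals) and for all 100354 regions (squares). The members lie above the whole for regions in all 6 lists and below it for regions in no F4/80-high list; the F4/80-high lists are KN-RM, KC-N and KC-H.

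The comparison of diets set KC-N against KC-H, the same sort gate in NASH-diet and control-diet mice. A list-specific peak was one in the best-scored 50% of its list that no peak of the other list overlapped. KC-N had 6 such peaks of 71 at the 9 genes (8.45%, 3.93% to 17.2%), beside 3.73% of all its high-scoring peaks, and KC-H had 4 of 91 (4.40%, 1.72% to 10.8%), beside 5.69%. The KC-N peaks were 3 at Klf6 and 1 each at Egr1, Klf3 and Klf13, and those of KC-H were 2 at Klf2 and 1 each at Egr2 and Klf13. The third Klf6 peak, 1.2 kb above the gene, scored 64 in KC-N, with the nearest KC-H centre 701 bp away. The Egr1 peak 0.644 kb below the gene scored 93 in KC-N (top 8.91%), but a KC-H centre lay 247 bp from it. With absence taken as no centre of the other list within 1000 bp, 2 of the 6 KC-N peaks were left (2.82%, beside 2.33% of its high-scoring peaks), both at Klf6, and 1 of the 4 KC-H peaks (1.10%, beside 3.10%). The interval of KC-N lies just above the share of its whole list when absence means no overlap, and its share is close to that of the whole under the 1000 bp rule. With overlap of 50% of the shorter peak required, the shares were 8.45% and 5.00%, which the interval holds. In the best-scored 25%, 3 of 42 KC-N peaks were list-specific (7.14%, beside 1.31%). The counts are small, and the 3 against 0 at Klf6 was known from earlier results of these data.

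KN-RM against KC-N compared Tim4-negative with Tim4-positive Kupffer cells on the NASH diet. KN-RM had 0 list-specific peaks of 52 (0% to 6.88%), beside 1.03% of its whole list, and KC-N had 2 of 71 (2.82%, 0.776% to 9.70%), beside 6.32%. The 2 peaks of KC-N were the one at the Klf3 start, with a score of 52, and one 0.277 kb inside Klf13, with a score of 51. KN-RM had centres 382 and 433 bp from them. Every high-scoring KN-RM peak at the 9 genes was thus also a peak of KC-N.

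Ly6CHi-RM against blood compared liver cells with monocytes of the same diet and high Ly6C. Ly6CHi-RM had 3 list-specific peaks of 84 (3.57%, 1.22% to 9.98%), beside 1.67%, and blood had 3 of 83 (3.61%, 1.24% to 10.1%), beside 2.18%. Those of Ly6CHi-RM were at Egr2 (50.9 kb upstream), Klf10 and Egr1, with scores of 50, 56 and 52. The strongest of blood, 0.381 kb above Klf10, scored 169 (top 2.83%) and had a Ly6CHi-RM centre 238 bp away. With absence taken as no centre of the other list within 1000 bp, 1 peak was left in each direction (1.19% in Ly6CHi-RM, beside 0.729% of its high-scoring peaks, and 1.20% in blood, beside 0.848%).

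Ly6CLo-RM against Ly6CHi-RM compared the recruited macrophages by Ly6C level. Ly6CLo-RM had 2 list-specific peaks of 80 (2.50%, 0.688% to 8.66%), beside 2.96%, both at Klf6, and Ly6CHi-RM had 5 of 84 (5.95%, 2.57% to 13.2%), beside 3.89%. The Klf6 region 74.2 kb before the start scored 50 in Ly6CLo-RM, with the nearest Ly6CHi-RM centre 1710 bp away, and was also in KC-N with a score of 29. The 5 Ly6CHi-RM peaks lay at Klf13 (2), Klf6, Egr3 and Klf10, and all had a Ly6CLo-RM centre within 505 bp.

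KN-RM against Ly6CLo-RM set Tim4-negative Kupffer cells against recruited macrophages with low Ly6C. KN-RM had 2 list-specific peaks of 52 (3.85%, 1.06% to 13.0%), beside 5.39%, at Egr1 and Klf13. Ly6CLo-RM had 6 of 80 (7.50%, 3.48% to 15.4%), beside 18.9% of its whole list, with 2 each at Klf3 and Klf6 and 1 each at Egr3 and Klf4. All 6 had no KN-RM centre within 1000 bp, the nearest being at 1327 bp for a Klf6 region inside the gene and the farthest at 26092 bp for the Klf4 region 38.4 kb below the gene. All 6 ranked between 32.3% and 47.5% of the Ly6CLo-RM list.

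**Figure D5:**
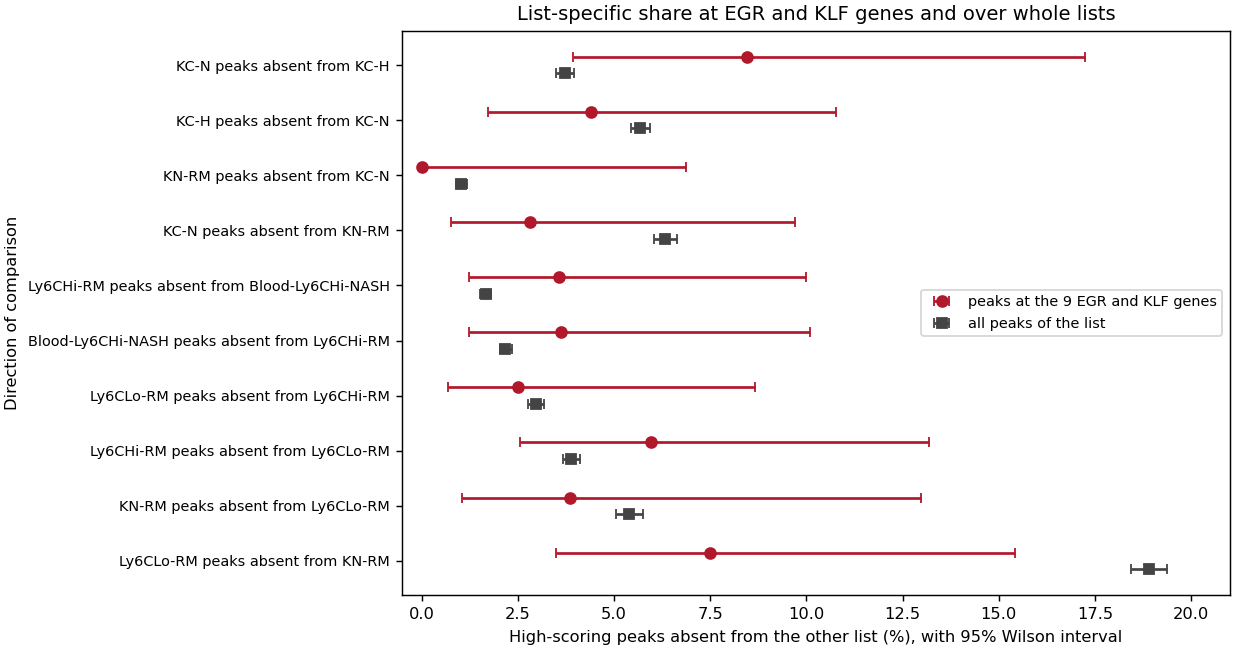
Share of high-scoring peaks of one list that are absent from another, for the 9 genes (circles) and for the whole list (squares), with 95% Wilson intervals for counting error. The circle of KC-N against KC-H lies above its square and that of Ly6CLo-RM against KN-RM below its square, with intervals that do not hold the square's value; in the other 8 directions the interval of the members holds it.

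Relatives and partners of the 9 genes were counted in the same way. Of 22 other EGR, KLF and SP factors, KC-N had 0 of 38 high-scoring peaks absent from KC-H (beside 3.73% of its whole list), and KC-H had 6 of 48 absent from KC-N (12.5%, beside 5.69%), among them 2 at Klf15 and 1 each at Klf12, Klf16 and Klf9. Klf15, known for control of nutrient metabolism in liver and muscle, had 6 peaks in KC-H and 0 in each of the other lists. Egr4, Klf17, Sp5 and Wt1 had no peak in any list. The widest relative was Sp3, with 9 peaks in KN-RM, 10 in KC-N, 12 in KC-H, 13 in Ly6CLo-RM, 20 in Ly6CHi-RM and 17 in blood. At 5 co-regulators, KC-N had 1 of 16 high-scoring peaks absent from KC-H (6.25%, beside 3.73%), at Ctbp1, a partner of Klf3. KC-H had 1 of 19 absent from KC-N (5.26%, beside 5.69%), at Sin3a. KC-N had 1 of 16 absent from KN-RM (6.25%, beside 6.32%), at Ctbp1. Blood had 2 of 23 absent from Ly6CHi-RM (8.70%, beside 2.18%), and Ly6CHi-RM 1 of 18 absent from blood (5.56%, beside 1.67%). Ly6CLo-RM had 2 of 17 absent from KN-RM (11.8%, beside 18.9%). Nab1 and Nab2, which bind and restrain EGR proteins, had no list-specific peak in the 5 comparisons.

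Of 21 upstream factors and kinases, 19 were in the annotation. KC-N had 3 of 54 peaks absent from KC-H (5.56%, beside 3.73%), with 1 each at Elk3 and Mef2c among those named. KC-H had 6 of 65 absent from KC-N (9.23%, beside 5.69%), with 2 each at Creb1 and Smad2 and 1 at Elk3. Ly6CLo-RM had 15 of 66 absent from KN-RM, a share of 22.7% beside 18.9% of its whole list, with 5 at Smad3, a transducer of TGF-beta, and 3 at Mef2c, one of the MEF2 factors that activate Klf2 in endothelium. Against Ly6CHi-RM, Ly6CLo-RM had 4 of 66 (6.06%, beside 2.96%), among them 1 each at Mef2c, Smad3 and Tgfbr2, and Ly6CHi-RM had 0 of 78 (beside 3.89%). Of 4 genes that Klf2 controls in other cell types, S1pr1 had 2 and Thbd 1 Ly6CLo-RM peaks absent from KN-RM, 3 of the 10 peaks of the list (30%, beside 18.9%). These lists were chosen with results of these data known, and nothing is drawn from their shares beyond the counts.

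The genes most like each member in the spread of their peaks over the 6 lists were Notch4 for Egr1, Gpa33 for Egr2, Cmss1 for Egr3, Ptpa for Klf2, Calm2 for Klf3, Zfp706 for Klf4, Ier5 for Klf6, Tmem243 for Klf10 and Mdm1 for Klf13. Likeness was the distance between peak counts per 10000, scaled to sum to 1 over the 6 lists. It was 0.0157 for Klf6 and Ier5, against a median of 0.0843 over 188 genes with enough peaks, and 0.0545 for Klf2 and Ptpa, the loosest of the 9 matches. Each match was chosen as the smallest distance, so its place below the median was fixed by the choice. Ier5, itself an immediate early gene, had 18 peaks in KN-RM, 23 in KC-N, 23 in KC-H, 29 in Ly6CLo-RM, 27 in Ly6CHi-RM and 24 in blood. The farthest peak that counted as a member lay 98.9 kb from Klf4, with a score of 68 in KC-H, and the nearest peak left out lay 103.5 kb from Egr2, with a score of 23 in KC-N.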

How the data were processed

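ATAC-seq peak lists of 6 groups with 2 libraries each were used. Per the submitters' processing notes, the tools were Bowtie2, HOMER and DESeq2 (no version or role is named) and the builds mm10 and GRCm38. For depth per library and read filters, the sources used here give nothing, so the precision per library is unknown. The deposited lists, named for the irreproducible discovery rate, hold per peak a position, a normalized tag count (signal) and a whole-number score, both the authors' values. The signal and score of the deposited peaks were used to rank peaks within a list (score, ties by signal).

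The positions of 21900 protein-coding genes are those of RefSeq on GRCm38.p6. Strand was known only for genes with a RefSeq promoter window; for the others distances are from the nearer gene end. Where a listed gene and another gene both contained a peak centre, the listed gene was used. Regions are unions of peaks that overlap by 1 bp or more. High-scoring means the best-scored 50% of a list. The members, the gene lists and the alternatives were chosen with earlier results of these data known. All 9 members are named, with their best-scored peaks and list-specific regions, up to 4 genes of each list with the most list-specific regions, and for each member the gene most like it; other regions given in the text were chosen after their values were seen. Some genes of the marker and pathway lists are not reported here. The functions were tested on simulated lists. The tools were Python 3.11.15 with matplotlib 3.10.9, scipy 1.17.1, pandas 2.3.3 and numpy 2.4.6.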

Additional observations from a re-analysis of the deposited data

How the results depend on the processing

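No paired analysis was possible because each list was made from both libraries of its group, and no library could be left out for the same reason. Of 154 recomputed values, 115 stayed within the counting interval of the reported value and 39 did not; none changed sign, since all are shares or counts, and the cause was not tested. With absence taken as no centre of the other list within 1000 bp, the list-specific share fell, with that of the whole list in brackets, to 2.82% (2.33%) in KC-N against KC-H and 1.10% (3.10%) in KC-H against KC-N, to 0% in KC-N against KN-RM (4.08%), in Ly6CHi-RM against Ly6CLo-RM (2.58%) and in KN-RM against Ly6CLo-RM (3.17%), to 1.19% (0.729%) in Ly6CHi-RM against blood and to 1.20% (0.848%) in blood against Ly6CHi-RM. The whole-list shares fell too. With all peaks in place of the best-scored 50% it became 31.3% (31.2%) in KC-H against KC-N, 27.3% (36.0%) in KC-N against KN-RM, 12.5% (11.1%) in Ly6CHi-RM against blood, 17.4% (21.4%) in blood against Ly6CHi-RM, 17.4% (14.0%) in Ly6CLo-RM against Ly6CHi-RM and 41.0% (46.6%) in Ly6CLo-RM against KN-RM. With the best-scored 25% it was 0% in KC-N against KN-RM (0.847%), Ly6CHi-RM against blood (0.527%), Ly6CLo-RM against Ly6CHi-RM (0.784%) and Ly6CLo-RM against KN-RM (5.07%), and 2.33% (0.709%) in Ly6CHi-RM against Ly6CLo-RM. With equal-length lists it was 1.69% (2.60%) in KC-H against KC-N, 1.96% (2.36%) in Ly6CHi-RM against Ly6CLo-RM, and 0% in Ly6CLo-RM against Ly6CHi-RM (3.22%) and against KN-RM (8.0%; the 6 peaks are no longer high-scoring by rank alone, so this does not bear on their absence), while the share of regions in all 6 lists was 43.1%, beside 32.4% of all regions. Peaks per 10000 in equal-length lists were 27.7 in KC-H and 27.1 in Ly6CHi-RM, and in the best-scored 50% of every list 28.7 in KC-H and 27.3 in Ly6CHi-RM. A 20 kb window gave 20.4 in KN-RM, 16.8 in KC-N, 17.3 in KC-H, 18.7 in Ly6CLo-RM, 15.9 in Ly6CHi-RM and 14.1 in blood, and a 1000 kb window 33.5 in KN-RM, 30.9 in KC-N, 29.8 in KC-H, 32.4 in Ly6CLo-RM, 29.1 in Ly6CHi-RM and 28.0 in blood. Without the KN-RM list, an alternative chosen after seeing the data, 38.4% of member regions and 31.0% of all regions were in every remaining list.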
